A study of Mus musculus with 4 samples.

Results

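The 8 genes described here were 1 Wnt ligand, Wnt5a, and 7 genes for secreted proteins classed as Wnt inhibitors: Wif1, Sfrp1, Sfrp2, Sfrp4, Frzb, Dkk2 and Dkk3. They were taken by gene symbol from the 27998 genes of the count tables, and each of the 8 had at least 1 UMI (a unique molecular identifier, which marks 1 captured transcript molecule). Their UMIs were followed over 4 libraries of mouse hindlimb tissue with 1241 cells after filtering, of which 500 were mesenchymal-like (fibroblast markers) and 107 were pericyte or smooth muscle-like.

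Wnt proteins are secreted, lipid-modified ligands that bind Frizzled receptors. With the co-receptors Lrp5 and Lrp6 they stabilise beta-catenin in the receiving cell, while Wnt5a acts largely through Ror receptors and Frizzled without beta-catenin. Secreted frizzled-related proteins (Sfrp1, Sfrp2, Sfrp4 and Frzb) and Wif1 bind Wnt proteins outside the cell, Dkk2 binds Lrp5 and Lrp6, and the relation of Dkk3 to Wnt signalling is debated. Fibroblasts are a main source of these proteins in connective tissue, where Wnt signalling is known from the formation of tendon, cartilage and bone.

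The study compared mice with 2 copies of the slie allele of Ddr2 with littermate controls. Ddr2 encodes a receptor for collagen, and slie is a deletion in it that arose spontaneously in the germline. The sources used here give neither the controls' own Ddr2 alleles nor the age, sex or strain of the mice. All mice had a burn of 30% of the body surface and a cut left Achilles tendon, and tissue was taken at day 7. The 4 groups were slie/slie injured (left limb), control injured (left limb), slie/slie uninjured (right limb) and control uninjured (right limb), so the uninjured limbs came from the same burned animals. Limbs of 2 mice were pooled into 1 library per group, which leaves no replicate and no test: the differences below are between libraries, and all intervals are 95% intervals for counting error only.

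The libraries differed in size and depth. Filtered cells numbered 246 in slie/slie injured, 751 in control injured, 184 in slie/slie uninjured and 60 in control uninjured, with medians of 1218, 1641, 4841 and 1337 UMIs per cell. Mesenchymal-like cells numbered 112, 306, 77 and 5 in that order, so the control uninjured library gave almost no fibroblasts to measure. Ddr2 (chromosome 1, 169972307 to 170110762, mm10) had 0 UMIs over all barcodes of slie/slie injured, which allows up to 2.01 CPM (UMIs scaled to a common library total), against 116 UMIs in control injured. It had 2 UMIs in slie/slie uninjured and 5 in control uninjured. At most 1 barcode was shared between any 2 libraries, and 0 after filtering.

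In the injured limbs the members were found mostly in mesenchymal-like cells in both genotypes. Of the Sfrp1 UMIs, 98.7% lay in mesenchymal-like cells in slie/slie injured and 99.1% in control injured, and of the Sfrp2 UMIs 98.7% and 98.8%. All Wif1 and all Sfrp4 UMIs of filtered cells lay there in every library that had any. For Wif1 this rests on the name of the cluster. Its 2 richest cells, described below, held 1 and 0 UMIs of the fibroblast marker Col1a1. Both held 0 UMIs of Dcn and Lum and 4 of Col3a1, with 10 and 0 of Pdgfra. In neutrophil-like cells, which show what free RNA adds, Sfrp1 was found in 0 of 44 cells of slie/slie injured, which allows a share of up to 6.82%, and in 6 of 152 cells (3.95%) of control injured, at median depths of 1641.5 and 1213 UMIs. The 6 members other than Sfrp1 and Sfrp2 had 0 UMIs in the neutrophil-like cells of both injured libraries. The pericyte or smooth muscle-like share for Sfrp1 in control injured, 7.27% (2.02 to 17.6), overlapped the neutrophil-like interval of 1.46 to 8.39 and is read as background.

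**Figure D1:**
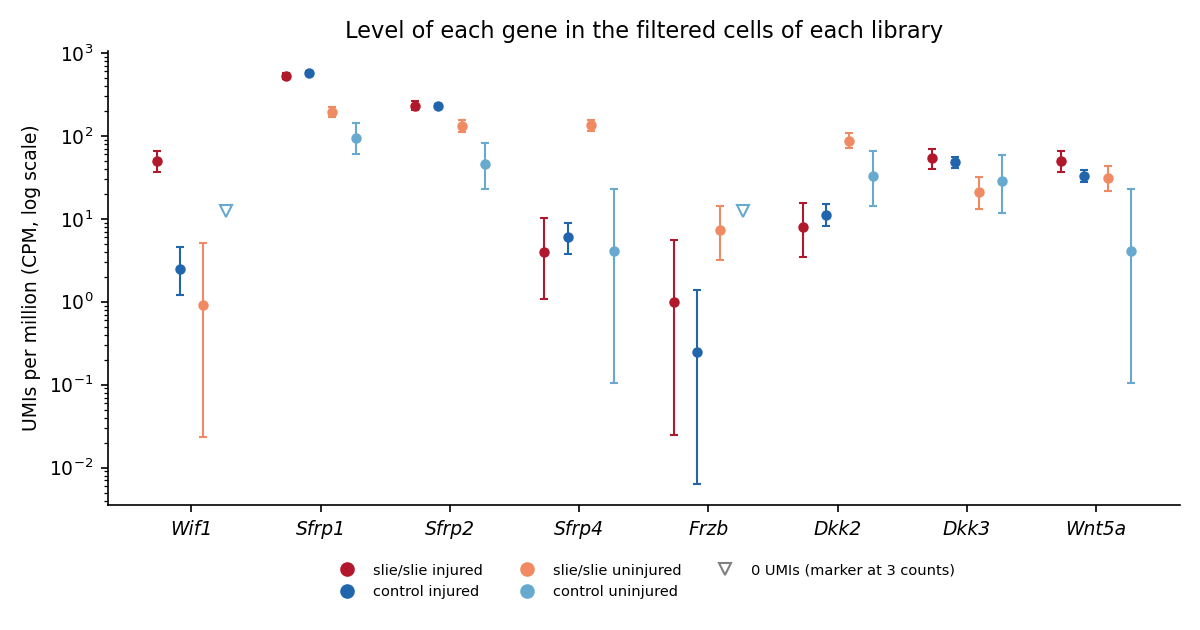
Level of each gene in each library, as CPM over all filtered cells, on a log axis, with exact Poisson 95% intervals for counting error. Triangles mark 0 UMIs and stand at the level of 3 counts. Wif1 stands out in slie/slie injured at 49.5 CPM, while Sfrp4 at 134 CPM and Dkk2 at 87.5 CPM stand out in slie/slie uninjured.

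Wnt5a (chromosome 14, 28504750 to 28527448), the ligand of the set, had 50 UMIs in 20 cells of slie/slie injured, 132 UMIs in 60 cells of control injured, 34 UMIs in 21 cells of slie/slie uninjured and 1 UMI in control uninjured. These counts are 49.5, 32.7, 31 and 4.12 CPM. It was spread over many cells in each library but the last. In slie/slie injured 47 of its 50 UMIs were in mesenchymal-like cells and 1 in pericyte or smooth muscle-like cells, against 108 and 21 of 132 in control injured. The pericyte or smooth muscle-like cells gave 9.15 CPM (0.232 to 51.0) in slie/slie injured, in 1 of 19 cells, and 54.4 CPM (33.7 to 83.1) in control injured, in 7 of 55 cells. The 2 intervals overlap, and 19 cells fall short of the 20 set for a comparison.

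Sfrp1 (chromosome 8, 23411502 to 23449632) was the member with the most UMIs. It had 538 UMIs in 54 cells of slie/slie injured, 2320 in 180 cells of control injured, 215 in 40 cells of slie/slie uninjured and 23 in 1 cell of control uninjured. Its level was 532 CPM (488 to 579) in slie/slie injured and 575 CPM (552 to 599) in control injured, a ratio of 0.925 (0.841 to 1.02). In slie/slie injured 1 cell of 76827 UMIs, 7.6% of the library, held 233 of the 538 UMIs (43.3%), whereas the richest cell of control injured held 5.3% of its UMIs. Within that deep cell Sfrp1 stood at 3033 CPM.

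Sfrp2 (chromosome 3, 83766321 to 83774316) had 235 UMIs in 27 cells of slie/slie injured, 920 in 125 cells of control injured, 145 in 13 cells of slie/slie uninjured and 11 in 1 cell of control uninjured. The levels were 232 CPM (204 to 264) in slie/slie injured and 228 CPM (214 to 243) in control injured, a ratio of 1.02 (0.879 to 1.18). The cell richest in Sfrp1 also held 150 of the 235 Sfrp2 UMIs in slie/slie injured (63.8%), so the near-equal level of Sfrp2 rests on that cell. An alternative added after seeing the data left out each gene's UMIs in its richest cell of each library. The log2 ratio was then -1.27 for Sfrp2 and -0.85 for Sfrp1. Here and below this setting keeps that cell's total UMIs, so its ratios are not those of the remaining cells.

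**Figure D2:**
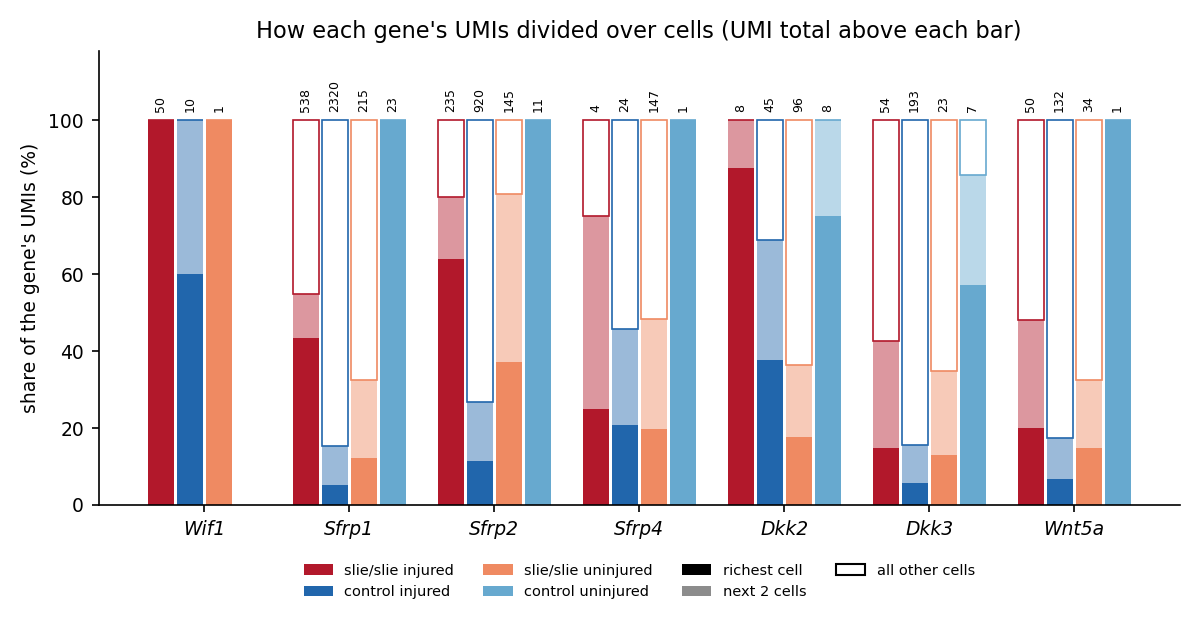
Share of each gene's UMIs, in percent, held by the richest cell (full colour), the next 2 cells (pale) and all other cells (open) of each library, with the UMI total above each bar. Frzb is left out because of its few UMIs. For each of the 7 genes, the richest cell of slie/slie injured held a larger share than that of control injured. For Sfrp4 that share was 1 of 4 UMIs. Slie/slie injured had 246 filtered cells and control injured 751, and the part of cell number in these shares was not tested.

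Sfrp4 (chromosome 13, 19623104 to 19632994) was found mostly in one uninjured library. Sfrp4 had 4 UMIs in 4 cells of slie/slie injured, 24 in 13 cells of control injured, 147 in 18 cells of slie/slie uninjured and 1 in control uninjured. Its level was 3.96, 5.95, 134 and 4.12 CPM in that order. All 147 UMIs of slie/slie uninjured lay in mesenchymal-like cells, of which that library had 77 and control uninjured 5.

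Frzb (chromosome 2, 80411970 to 80447625), which encodes a secreted frizzled-related protein known from cartilage, was rare in fibroblasts, with 1 UMI in 112 mesenchymal-like cells of slie/slie injured, 0 in 306 of control injured and 0 in 77 of slie/slie uninjured. The 5 such cells of control uninjured also had 0, which allows up to 188 CPM and says little. It had 1 UMI in each injured library, 8 in slie/slie uninjured and 0 in the filtered cells of control uninjured, which allows up to 12.4 CPM. All 8 UMIs of slie/slie uninjured lay in 4 of 9 cells of a Schwann-like cluster (cluster 17), where Frzb stood at 174 CPM (75.3 to 344). The 67 mesenchymal-like cells of cluster 8 in that library held 0 Frzb UMIs.

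Dkk2 (chromosome 3, 132085292 to 132180304) had 8 UMIs in 2 cells of slie/slie injured, 45 in 16 cells of control injured, 96 in 25 cells of slie/slie uninjured and 8 in 3 cells of control uninjured. The levels were 7.91, 11.2, 87.5 and 32.9 CPM. Besides fibroblasts, endothelial-like cells held Dkk2: 0 of 8 UMIs in slie/slie injured, 11 of 45 in control injured, 4 of 96 in slie/slie uninjured and 7 of 8 in control uninjured. Of these, 8 of the 11 and 6 of the 7 were in 1 cell each.

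Dkk3 (chromosome 7, 112116017 to 112159057) had 54 UMIs in slie/slie injured, 193 in control injured, 23 in slie/slie uninjured and 7 in control uninjured, or 53.4, 47.9, 21 and 28.8 CPM. It was the most even member across libraries. Besides fibroblasts it was found in pericyte or smooth muscle-like cells of every library, which held 6 of 54 UMIs in slie/slie injured, 11 of 193 in control injured, 5 of 23 in slie/slie uninjured and 6 of 7 in control uninjured. In slie/slie injured those 6 UMIs were in 1 cell.

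Wif1 (chromosome 10, 121033960 to 121100650), which encodes Wnt inhibitory factor 1, had 50 UMIs in slie/slie injured, 10 in control injured, 1 in slie/slie uninjured and 0 in the filtered cells of control uninjured. The level was 49.5 CPM (36.7 to 65.2) in slie/slie injured and 2.48 CPM (1.19 to 4.56) in control injured, a ratio of 19.9 (10.0 to 44.1). All 50 UMIs were in 1 cell of 11636 UMIs, so the ratio is that of 1 cell with 3 cells of control injured, which held 6, 3 and 1 UMIs. Shares of cells with a Wif1 UMI were 0.407% (0.0103 to 2.24) in slie/slie injured and 0.399% (0.0825 to 1.16) in control injured. The counting interval of the ratio does not cover the chance of catching such a cell. With each library's richest Wif1 cell left out, slie/slie injured had 0 UMIs and control injured 4.

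The Wif1 cell of slie/slie injured differed from the other cells of its cluster, and a like cell was present in control injured. It held 33 UMIs of Slc26a7 (an anion transporter), 18 of Rspo1 (a secreted amplifier of Wnt signals), 117 of Crabp1 (a retinoic acid binding protein), 44 of a (the agouti signal of hair pigmentation), 21 of Bmp4 (a bone morphogenetic protein), 8 of Notum (a secreted enzyme that inactivates Wnt proteins), 6 of Lef1 (a transcription factor of the beta-catenin pathway), 7 of Dkk2 and 3 of Wnt5a. These genes were chosen after their values were seen. It held 1 UMI of Col1a1 and 0 of Col1a2, Dcn, Lum, Sfrp1 and Sfrp2, while the other 137 injured-limb cells of cluster 1 averaged 32145 CPM of Col1a1 and 2371 CPM of Sfrp1. The control injured cell with 6 Wif1 UMIs had 6514 UMIs in all. That cell held 6 of Slc26a7, 4 of Rspo1, 10 of Crabp1, 27 of a, 10 of Bmp4, 2 of Notum, 2 of Lef1 and 0 of Col1a1. It also held 5 UMIs of Wnt5a and, unlike the slie/slie cell, 0 of Dkk2. Each of these 2 cells was also the richest of its library in Rspo3, with 7 of 18 UMIs in slie/slie injured and 28 of 84 in control injured. Neither was called a doublet, and each injured library held 1 such cell among 24 cells of cluster 1 in slie/slie injured and 114 in control injured.

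**Figure D3:**
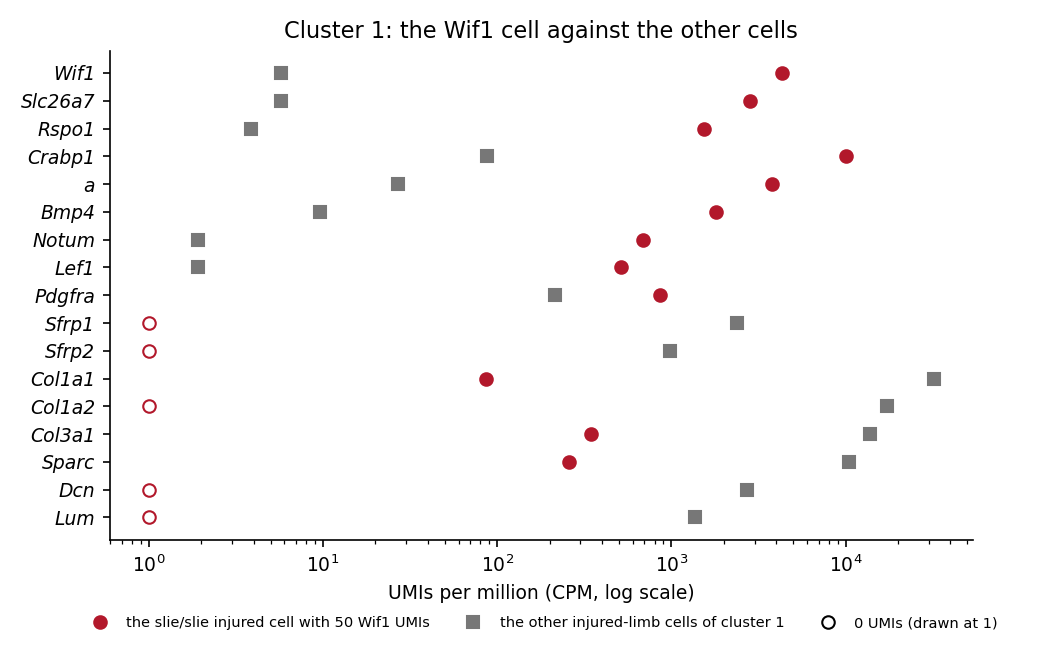
CPM on a log axis of 17 genes in the slie/slie injured cell with 50 Wif1 UMIs (circles) and summed over the other 137 injured-limb cells of cluster 1 (squares), with open symbols for 0 UMIs drawn at 1. Wif1, Rspo1 and Notum are higher in that cell, where the collagen genes, Sfrp1 and Sfrp2 are lower or at 0.

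Promoters from RefSeq (GRCm38.p6, the assembly behind mm10) were given for 4 of the 8 genes, each with 250 bases before and 50 after the gene's start. They are shown for Wif1 and Dkk2, found together in the slie/slie cell above, and for Frzb, the member whose promoter held a match to CTTTGA, the core that Tcf and Lef factors bind. Capitals mark a match on either strand, here the reverse complement. The Wif1 promoter lies at chr10:121033754-121034053 (plus strand), that of Dkk2 at chr3:132085042-132085341 (plus strand) and that of Frzb at chr2:80447347-80447646 (minus strand).
Wif1: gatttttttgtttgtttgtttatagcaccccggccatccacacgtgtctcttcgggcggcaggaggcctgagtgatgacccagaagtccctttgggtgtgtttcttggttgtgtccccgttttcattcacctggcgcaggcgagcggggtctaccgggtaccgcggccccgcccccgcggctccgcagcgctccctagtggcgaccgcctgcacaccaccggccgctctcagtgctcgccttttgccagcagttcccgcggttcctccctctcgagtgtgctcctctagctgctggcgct
Dkk2: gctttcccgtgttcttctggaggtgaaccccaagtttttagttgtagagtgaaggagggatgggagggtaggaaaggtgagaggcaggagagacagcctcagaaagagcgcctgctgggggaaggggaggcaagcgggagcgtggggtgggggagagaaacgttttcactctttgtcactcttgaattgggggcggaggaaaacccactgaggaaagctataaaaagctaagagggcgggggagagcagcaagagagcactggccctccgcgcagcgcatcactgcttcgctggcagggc
Frzb: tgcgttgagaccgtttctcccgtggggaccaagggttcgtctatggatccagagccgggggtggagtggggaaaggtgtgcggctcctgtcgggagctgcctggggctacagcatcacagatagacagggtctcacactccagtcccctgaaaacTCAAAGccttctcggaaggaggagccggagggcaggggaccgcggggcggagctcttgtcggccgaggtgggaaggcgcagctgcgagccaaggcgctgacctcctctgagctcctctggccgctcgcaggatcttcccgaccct
Frzb had 1 match, and Wif1, Dkk2 and Sfrp2 had 0. Of 32851 promoters of the same length, 5257 (16%) held at least 1 match.

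Over all filtered cells of the injured limbs, 7 of the 8 members were measured (at least 20 UMIs over both libraries) and 1, Wif1, was at least 2-fold different between slie/slie and control. The same rule called 12.3% of the 11313 genes measured, 4.46% as higher. The median log2 ratio of the measured members was 0.03, beside -0.01 over all genes measured. Wnt5a had a ratio of 1.51 (1.07 to 2.11), Dkk3 of 1.12 (0.81 to 1.52), Dkk2 of 0.709 (0.289 to 1.52) and Sfrp4 of 0.665 (0.168 to 1.94). The intervals of the last 3 genes include 1. After thinning each cell to 500 UMIs, Wnt5a had a log2 ratio of 1.11 and Sfrp2 of -1.35.

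Within the fibroblasts, levels were compared cluster by cluster, because the mesenchymal-like clusters differed in their leading genes. Cluster 0 (50 cells of slie/slie injured, 101 of control injured) held cells of low depth, cluster 1 (24 and 114 cells) the cells richest in matrix genes, and cluster 6 (25 and 62 cells) cells with genes of cell division. The median mitochondrial share in cluster 0 was 0.144% in slie/slie injured and 0% in control injured, against 3.69% and 4.59% in cluster 1. At least 1 member was found in 23 of 24 cells of cluster 1 in slie/slie injured and in 106 of 114 in control injured. In cluster 0 they were 30 of the 50 slie/slie injured and 45 of the 101 control injured cells, and in cluster 6 they were 8 of 25 and 40 of 62. A further mesenchymal-like cluster, cluster 11, had 12 cells of slie/slie injured and 28 of control injured, too few to compare, with medians of 377.5 and 658.5 UMIs. Members were found there in 0 of the 12 slie/slie injured cells and 7 of the 28 control injured ones.

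In cluster 1, Sfrp1 stood at 2478 CPM (2253 to 2719) in slie/slie injured and 2317 CPM (2217 to 2421) in control injured, a ratio of 1.07 (0.963 to 1.19). Sfrp1 was found in 19 of 24 cells of slie/slie injured and 94 of 114 of control injured. Wnt5a had 32 UMIs in 11 of 24 cells of slie/slie injured and 68 UMIs in 31 of 114 cells of control injured, or 178 CPM (122 to 251) and 77.9 CPM (60.5 to 98.8). The Wnt5a ratio was 2.28 (1.45 to 3.52), and the interval excludes 1. Of 6 measured members, 3 were at least 2-fold higher in slie/slie injured, Wif1, Dkk2 and Wnt5a, against 16.7% of all genes in either direction and 3.92% higher. Wif1, at 40.4 (17.3 to 115), was 1 cell in each library, and 7 of the 8 Dkk2 UMIs of slie/slie injured lay in that same slie/slie cell.

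Sfrp2 in cluster 1 had 210 UMIs in 12 of 24 cells of slie/slie injured and 810 in 76 of 114 cells of control injured, a ratio of 1.26 (1.07 to 1.46). Without the deep slie/slie cell the ratio of Sfrp2 was 0.627 (0.474 to 0.815), so its direction turns on 1 cell. Without that cell and the Wif1 cell, Sfrp1 had a ratio of 1.00 (0.868 to 1.16) and Wnt5a of 2.94 (1.71 to 4.86). Dkk3 had 29 UMIs in slie/slie injured and 152 in control injured, a ratio of 0.925 (0.599 to 1.38). The log2 ratio of Wnt5a in cluster 1 fell short of 1, at 0.95, with the coarser clustering described below. It was 0.98 without the Wnt5a UMIs of this cluster's richest cell in each library, whose totals were kept. In slie/slie injured that was the deep cell. With it alone left out in full, the Wnt5a ratio was 2.99 (1.79 to 4.82).

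In cluster 0, Sfrp1 had 66 UMIs in 25 of 50 cells of slie/slie injured and 77 in 33 of 101 cells of control injured, or 1200 CPM (928 to 1526) and 524 CPM (414 to 655). The ratio was 2.29 (1.62 to 3.22), 1 of 2 measured members called where 17.4% of genes were, 6.42% as higher. The log2 ratio of Sfrp1 in cluster 0, 1.19, fell short of a call at 0.56 with a coarser clustering, which put most cells of clusters 0 and 6 together, and at 0.88 when clusters were made without control uninjured. In cells thinned to 500 UMIs, Sfrp1 was found in 39.4% (22.9 to 57.9) of 33 cells of slie/slie injured, with 17 shallower cells left out, and in 20.8% (13.4 to 30.0) of 101 cells of control injured. The unthinned shares were 50.0% and 32.7%, at median depths of 631.5 and 869 UMIs. Sfrp2 in cluster 0 had a ratio of 1.10 (0.628 to 1.86). The summed mesenchymal markers of cluster 0 moved the same way, 20703 CPM in slie/slie injured (13 of 15 markers) and 11549 CPM in control injured (14 of 15), as did erythroid markers, 7452 CPM (5 of 7) and 1294 CPM (4 of 7). Their part in the result was not tested.

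In cluster 6, Sfrp1 went the other way. It had 18 UMIs in 5 of 25 cells of slie/slie injured and 180 in 29 of 62 cells of control injured, or 134 CPM (79.4 to 212) and 495 CPM (426 to 573), a ratio of 0.27 (0.157 to 0.44). Sfrp2 had 1 UMI in slie/slie injured and 47 UMIs in 17 cells of control injured, a ratio of 0.0575 (0.00143 to 0.337). These were 2 of 4 measured members called, both lower, where 20.7% of genes were called, 15.7% as lower and 4.93% as higher. Dkk3 at 1.19 (0.528 to 2.51) and Wnt5a at 1.07 (0.514 to 2.08) had intervals that include 1. A cell of 74520 UMIs with 0 Sfrp1 and 0 Sfrp2 UMIs lay in this cluster in slie/slie injured. Without the 3 deepest cells of each library in this cluster the log2 ratios were -1.25 for Sfrp1, 1.75 for Dkk3 and 1.59 for Wnt5a. That of Sfrp2 was -1.20, against -4.12 with them. Sfrp2 had at most 1 UMI in slie/slie injured either way, and a count of 0 is set to 3. Its shift is therefore not read as a measured change. Without the UMIs of each member's richest cell the log2 ratio of Wnt5a was -1.68, so its direction in cluster 6 turns on few cells. In the joint cluster of the coarser clustering the log2 ratio of Sfrp1 was 0.56, as given for cluster 0. Tenocyte markers summed to 2224 CPM in the slie/slie injured cells of cluster 6 (7 of 7 markers) and 201 CPM in control injured (6 of 7), and their part in the result was not tested.

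**Figure D4:**
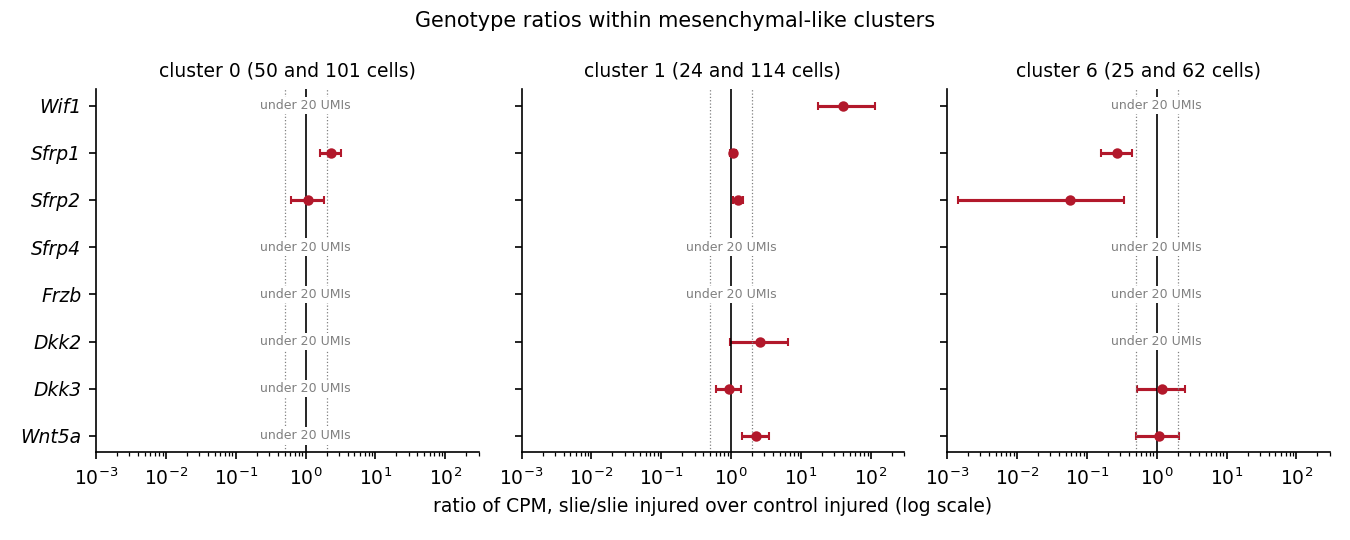
Ratio of CPM, slie/slie injured over control injured, of each gene in 3 mesenchymal-like clusters on a log axis, with exact 95% counting intervals, dotted lines at 0.5 and 2, and cell numbers of slie/slie injured and control injured in each title. Sfrp1 lies at 2.29 in cluster 0, 1.07 in cluster 1 and 0.27 in cluster 6, and Wnt5a at 2.28 in cluster 1.

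In the uninjured limbs most member UMIs came from slie/slie, which was also the larger library. It had 1097002 UMIs in filtered cells, against 242888 in control uninjured. Of 6 measured members, 5 were at least 2-fold higher in slie/slie uninjured than in control uninjured, where the rule called 21.6% of all genes, 14.3% as higher and 7.34% as lower. The ratios were 2.07 (1.34 to 3.34) for Sfrp1, 2.92 (1.58 to 5.98) for Sfrp2, 32.5 (5.75 to 1294) for Sfrp4, 2.66 (1.3 to 6.33) for Dkk2 and 7.53 (1.26 to 306) for Wnt5a. Dkk3 was not called, at 0.727 (0.302 to 2.01). With cells thinned to 500 UMIs 2 of the members were called, where 15.1% of all genes were. All 23 Sfrp1 and all 11 Sfrp2 UMIs of control uninjured were in 1 cell for each gene. Without the UMIs of each library's richest cell, control uninjured had no UMI of either gene left and was set to 3 counts. The log2 ratios were then lower bounds, 2.75 for Sfrp2, against 1.55 with that cell, and 3.8 for Sfrp1, against 1.05. In cell numbers, 77 mesenchymal-like cells of slie/slie uninjured stand against 5 of control uninjured. Over mesenchymal-like cells alone the direction turned for Sfrp1 and Sfrp2. Sfrp1 stood at 390 CPM (340 to 447) in slie/slie uninjured and 1438 CPM (912 to 2158) in control uninjured, where 1 of 5 cells held it. Sfrp2 stood at 265 CPM (224 to 312) and 688 CPM (343 to 1231), again from 1 of 5 control cells. Sfrp4 kept its direction with overlapping intervals, at 271 CPM (229 to 318) in slie/slie uninjured and 62.5 CPM (1.58 to 348) in control uninjured. It was found in 18 of 77 and 1 of 5 cells. Genotype and the number of fibroblasts captured cannot be told apart in the ratios over all cells. In control uninjured the 1015 barcodes outside the filter held 6 further Sfrp4 UMIs.

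The fibroblasts of slie/slie uninjured made up most of cluster 8, with 67 of its 71 cells, and may reflect the library as much as a cell type. Among these 67 cells Sfrp1 was found in 36 (205 UMIs), Dkk2 in 20 (90 UMIs), Wnt5a in 20 (29 UMIs), Sfrp4 in 18 (147 UMIs), Sfrp2 in 10 (136 UMIs) and Dkk3 in 10 (11 UMIs). With so few cells positive for each gene, a small overlap is no sign of separate cells. Sfrp2 and Sfrp4 were found together in 1 cell, with 54 Sfrp2 UMIs, the most of any cell in the cluster, and 1 Sfrp4 UMI. Dkk2 was found in 8 of the 10 cells with Sfrp2 and in 5 of the 18 cells with Sfrp4, whose median depths were 7472 and 10929 UMIs. Its level was 352 CPM (239 to 500) in the cells with Sfrp2, 138 CPM (90.8 to 201) in those with Sfrp4 and 161 CPM (110 to 227) in the 40 cells with neither. Dkk2 and Sfrp1 were found together in 18 of the 20 cells with Dkk2.

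**Figure D5:**
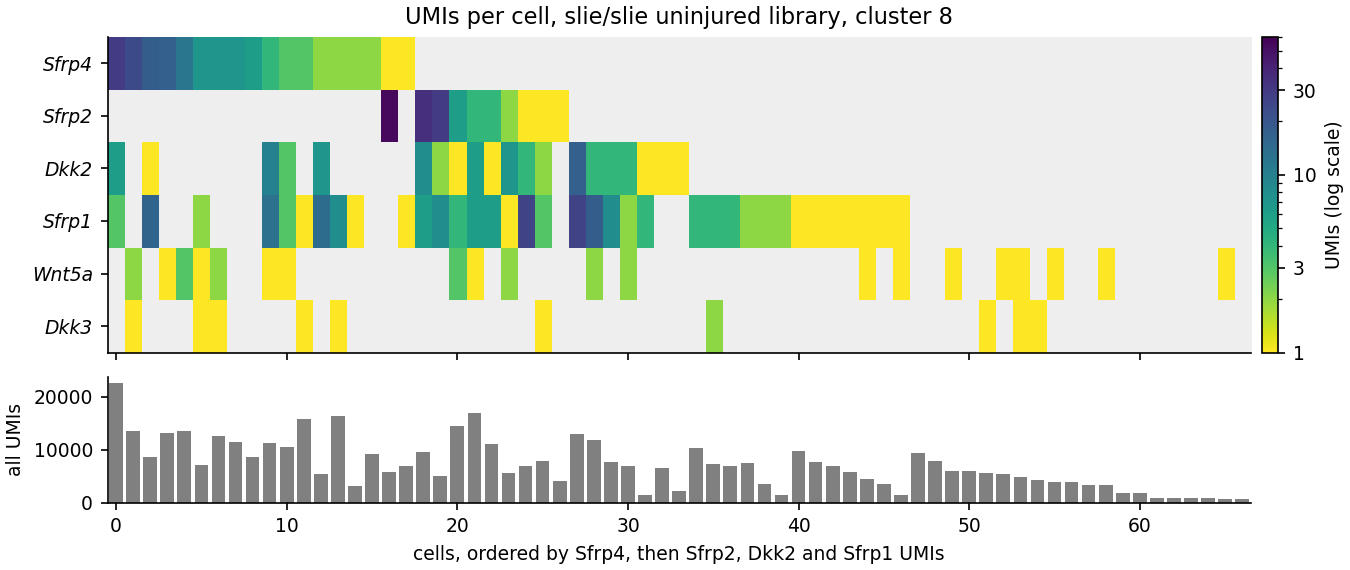
UMIs of 6 genes in each of the 67 cells of cluster 8 in slie/slie uninjured (colour, log scale, grey for 0) above the total UMIs of each cell, with cells ordered by Sfrp4, then Sfrp2, Dkk2 and Sfrp1. The 18 cells with Sfrp4 and the 10 with Sfrp2 share 1 cell.

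In cluster 1 of the injured limbs most cells held Sfrp1. Sfrp1 was also found in 11 of the 12 slie/slie injured cells with Sfrp2 and in 67 of the 76 control injured ones, close to its share of all cells there (19 of 24 and 94 of 114), at median depths of 7247 and 4987 UMIs for cells with Sfrp2. Sfrp4 in cluster 1 had 4 UMIs in slie/slie injured and 15 in control injured, the richest cells holding 1 and 4.

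Between injured and uninjured limbs of slie/slie, 5 of 7 measured members were at least 2-fold different, where 24.9% of all genes were. Wif1, at 54.3 (9.3 to 2186), rests on the cell described above. Sfrp1 was higher in the injured limb, at 2.72 (2.31 to 3.2), as was Dkk3, at 2.55 (1.54 to 4.35). Sfrp4 was lower, at 0.0295 (0.00794 to 0.0772), 4 UMIs in the injured limb and 147 in the uninjured one, as was Dkk2, at 0.0904 (0.038 to 0.185), with 8 and 96 UMIs. Sfrp2 at 1.76 (1.42 to 2.18) and Wnt5a at 1.6 (1.01 to 2.54) were not called. Without the UMIs of each gene's richest cell the log2 ratio of Sfrp1 was 0.81 and that of Sfrp2 0.02, so the call of Sfrp1 depends on those UMIs. In thinned cells Dkk2 had a log2 ratio of -0.85, short of a call, and Sfrp4 of -3.11. The fibroblasts of these libraries fell into different clusters, cluster 8 holding 1 cell of slie/slie injured and 67 of slie/slie uninjured.

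Between the limbs of control mice, 4 of 6 measured members were called, where 31.9% of all genes were. Sfrp1 at 6.08 (4.04 to 9.6), Sfrp2 at 5.04 (2.8 to 10.1) and Wnt5a at 7.95 (1.4 to 316) were higher in control injured, and Dkk2 at 0.339 (0.158 to 0.832) was lower. The Dkk2 log2 ratio was -0.25 without the Dkk2 UMIs of each library's richest cell and 0.74 without called doublets. Called doublets were 0 of 751 cells of control injured and 14 of 60 of control uninjured. Sfrp4 at 1.45 (0.236 to 59.4) and Dkk3 at 1.66 (0.791 to 4.19) were not called. Over mesenchymal-like cells alone, Sfrp1 stood at 1605 CPM (1540 to 1672) in control injured and 1438 CPM (912 to 2158) in control uninjured. Sfrp2 stood at 634 CPM (594 to 677) and 688 CPM (343 to 1231) in that order. Both control uninjured values came from 1 of 5 cells. Wnt5a and Dkk2 had 0 UMIs in those 5 cells. With 5 mesenchymal-like cells in control uninjured and 306 in control injured, level per fibroblast and number of fibroblasts cannot be told apart here either. This comparison shares each of its libraries with a genotype comparison above.

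Of the wider Wnt pathway, receptors were the list with genes called lower over all filtered cells in the injured genotype comparison. Of 16 measured receptors and co-receptors out of 20, 5 were at least 2-fold lower in slie/slie injured and 0 higher, with a median log2 ratio of -0.36 beside -0.01 over all genes; 7.83% of all genes were called lower. Fzd1, a Frizzled receptor, had 16 UMIs in slie/slie injured and 140 in control injured, a ratio of 0.456 (0.254 to 0.767). The others, named after their values were seen, were Fzd3, Fzd8, Lgr5 (an R-spondin receptor) and Ror2 (a receptor of Wnt5a), with 1 to 4 UMIs each in slie/slie injured, and the intervals of Fzd3, Lgr5 and Ror2 include 1. Ryk at 1.14 (0.891 to 1.44), Fzd2 at 1.28 (0.941 to 1.72) and Lrp6 at 0.57 (0.369 to 0.85) were not called. Within cluster 1, 2 of 13 measured receptors and 2 of 12 intracellular genes were called lower, where 12.8% of all genes were. In cluster 6 they were 2 of 3 and 3 of 5, where 15.7% of all genes were, and in cluster 0 they were 0 of 1 and 0 of 2.

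Other secreted components with calls in that comparison each came from few cells. The same rule called 12.3% of all genes there, 4.46% as higher and 7.83% as lower. Of 5 measured ligands, out of 19, 2 were higher, Wnt6 being named after its values were seen: Wnt4, with 24 UMIs in slie/slie injured, all in keratinocyte-like cells, against 31 in control injured, and Wnt6, with 20 UMIs in 2 cells against 2. Wnt5b at 1.11 (0.322 to 3.1) and Wnt9a at 1.75 (0.607 to 4.48) were not called. Of 8 measured secreted inhibitors, out of 15 with 7 of the members among them, 3 were higher: Wif1 and, named after their values were seen, Sfrp5 (49 UMIs in 1 slie/slie cell, against 3) and Sostdc1 (28 against 13). That cell, of cluster 8, also held 17 of the 20 Wnt6 and 15 of the 28 Sostdc1 UMIs of slie/slie injured. In slie/slie uninjured, Sfrp5 had 101 UMIs in 16 cells, of which 74 were in 1 cell. Of 4 measured R-spondin and secretion genes, out of 6, 1 was higher, Rspo1, whose 18 UMIs were all in the Wif1 cell, while Wls, which carries Wnt proteins to the cell surface, stood at 156 CPM in slie/slie injured and 167 CPM in control injured. Of 18 measured intracellular genes, out of 19, 0 were called either way, with a median log2 ratio of 0.04. Ctnnb1, which encodes beta-catenin, had a ratio of 0.958 (0.77 to 1.18), and the kinase genes Csnk1a1 and Gsk3b had 0.917 (0.801 to 1.05) and 0.726 (0.58 to 0.901).

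Pathway target genes gave 1 call of 5 measured, out of 13, between slie/slie injured and control injured. It was Nkd2, an intracellular inhibitor, at 2.52 (1.12 to 5.47), where 4.46% of all genes were called higher. Wisp1, a secreted matrix protein induced by Wnt signals, had 99 UMIs in slie/slie injured and 345 in control injured, a ratio of 1.14 (0.906 to 1.44). Ccnd1 at 1.64 (1.26 to 2.12) and Myc at 0.905 (0.573 to 1.38), both genes of cell growth, were not called. Wisp1 was higher in the injured limb in both genotypes, at 6.71 (3.94 to 12.2) in slie/slie and 2.6 (1.3 to 6.06) in control. In slie/slie uninjured 10 of its 16 UMIs were in 1 cell. In control injured 318 of its 345 UMIs lay in mesenchymal-like cells, of which control uninjured had 5. Level per fibroblast and number of fibroblasts cannot be told apart between the control limbs. Axin2, a feedback inhibitor of the beta-catenin pathway, had 17 UMIs in control injured and 9 in control uninjured, a ratio of 0.114 (0.048 to 0.29). Of the 6 target genes measured between the control limbs, 1 was higher and 3 were lower, where 17.5% of all genes were called higher and 14.4% lower. The others called lower, named after their values were seen, were Nkd1 at 0.0552 (0.0221 to 0.137) and Nkd2 at 0.381 (0.112 to 2.01). These calls rest on the 60 cells of control uninjured, where 6 of the 12 Nkd1 UMIs were in 1 endothelial-like cell.

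Across 21 populations of at least 20 cells (a library's cells of 1 cluster or class), the genes most like each member in level were compared by Pearson correlation of log2(CPM + 10) among 7309 genes. For Sfrp1 they were Cpxm1, Prrx2 and Epb41l3 (r of 0.93 each), for Sfrp2 Rspo3 and Gm26771 (0.94 each) and Mdk (0.92), and for Sfrp4 Osr1 (0.95), Dpep1 and Chrdl1 (0.93 each). For Dkk3 they were Angptl2 (0.96), Lox (0.94) and B3gnt9 (0.92), and for Wnt5a Bmp1 and B3gnt9 (0.93 each) and Adamts2 (0.92). For Dkk2 the values were lower, with Entpd2 at 0.86, Podn at 0.85 and Sult5a1 at 0.83. The populations share 4 libraries, their depths and partly their cells, so these are descriptions. Of the 176 Sfrp4 UMIs, 147 lay in mesenchymal-like cells of slie/slie uninjured.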

How the data were processed

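Hindlimb cells of 4 groups, 1 library each of 2 pooled mice, were sequenced with droplet 3 prime gene expression, per the labels' protocols. The deposited values are raw counts (UMIs) for each gene in each barcode. Per the file headers the authors made them with Cell Ranger 5.0.1, and per the submitters' processing notes the build was mm10. The sources used here do not state the annotation. Coordinates came from GENCODE M21 on mm10. Reads are counted near transcript ends, so levels were not compared between genes.

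A barcode was kept from 200 genes up if mitochondrial UMIs made up no more than 20%. Cells were clustered with scanpy 1.11.5 (2000 variable genes, 30 components, 15 neighbours, Leiden resolution 1), with 92 Wnt pathway genes in 6 lists, the members included, left out of the variable genes. Clusters, 18 in all, were named from markers of 21 cell types. Doublets were called with Scrublet and kept. UMIs were summed per library and population and given as CPM with exact Poisson intervals, ratios with exact conditional binomial intervals and shares with exact binomial (Clopper-Pearson) intervals. A gene was measured with 20 UMIs over both libraries and called at 2-fold, and a population needed 20 cells in both. A count of 0 allows up to 3 counts. The method was tested on simulated counts. No p-values were computed. The alternatives are in the closing section.

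The named genes were the 8 members, Ddr2, of each Wnt list the 4 genes with the most UMIs over the 2 libraries compared, and for members with at least 100 UMIs the 3 genes most alike. Members and lists were chosen with earlier results of these data known, and examples outside the rule are marked as chosen after their values were seen.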

Additional observations from a re-analysis of the deposited data

Results flagged for a closer look

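For a few members the log2 ratios between limbs or between genotypes had opposite signs in the groups they could be compared in. These are differences between single libraries and were not tested. In each pair 1 ratio has a counting interval that includes 1, so its sign is not established. For Sfrp4 the log2 ratio of injured over uninjured was -5.08 in slie/slie and 0.53 in control, the second with a ratio of 1.45 (0.236 to 59.4). The log2 ratio of slie/slie over control for Sfrp4 was -0.59 in injured and 5.02 in uninjured limbs. The injured-limb ratios were 0.665 (0.168 to 1.94) for Sfrp4, 0.709 (0.289 to 1.52) for Dkk2 and 0.925 (0.841 to 1.02) for Sfrp1. For Dkk2 the genotype ratio was -0.50 in injured and 1.41 in uninjured limbs, and for Sfrp1 it was -0.11 and 1.05. Each of these pairs includes control uninjured, with 5 mesenchymal-like cells and 1, 8 and 23 UMIs of Sfrp4, Dkk2 and Sfrp1.

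Barcodes outside the filter, which the comparisons do not use, also held member UMIs. Sfrp1 had 4 UMIs in the 129 such barcodes of slie/slie injured, 41 in the 91 of control injured, 4 in the 105 of slie/slie uninjured and 4 in the 1015 of control uninjured. Sfrp2 had 4 UMIs in those of control injured and 4 in those of control uninjured. Sfrp4 had 6 UMIs in those of control uninjured, against 1 in its filtered cells.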

How the results depend on the processing

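Of 382 recomputed values of single members, 310 stayed within their counting interval, 69 moved beyond it and 3 were called ratios that changed direction. Counting ratios under 2-fold as well, 43 values had the opposite sign, Sfrp2 in injured limbs among them. Of the 3 called log2 ratios, Dkk2 between control injured and control uninjured was 0.74 without called doublets (0 of 751 and 14 of 60 cells). Sfrp1 in cluster 6 was 0.56 at Leiden resolution 0.5. Dkk2 in cluster 1 was -0.89 without the Dkk2 UMIs of that cluster's richest cell in each library. The number of members called, 1 in the injured genotype comparison, was 2 with cells weighted equally (28.6% of all genes called), 3 with cells thinned to 500 UMIs (15.7%), 2 without the 3 deepest cells of each library (12.7%), 3 at 1.5-fold (28.8%) and 2 without each gene's richest cell (14.6%). In the uninjured genotype comparison it was 5, and 2 with cells thinned (15.1%) and 3 without the 3 deepest cells (21.6%). In the slie/slie injury comparison it was 5, and 3 without the richest cells (28.2%). Within the mesenchymal-like clusters 6 calls became 2 at Leiden resolution 0.5, where clusters 0 and 6 matched the same cluster (Sfrp1 0.56, Sfrp2 -0.26) and Wnt5a in cluster 1 stood at 0.95. They became 2 when clustering left out control uninjured, since the match of cluster 1 had 17 slie/slie cells, too few to compare, and Sfrp1 in cluster 0 stood at 0.88. For the other settings the cause was not tested. The richest-cell setting left out a gene's UMIs in its richest cell of each library but kept that cell's total. Within a cluster, the richest cell was that of the cluster. This setting and a 10-cell limit, which let Wnt5a in pericyte or smooth muscle-like cells be compared (log2 ratio -2.57), were chosen after seeing the data. Frzb is limited by its few UMIs, Wif1 by the few cells that hold it and control uninjured by its 60 cells. No paired analysis was possible because each group has 1 library.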
